A study of Homo sapiens with 36 samples.

Results

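The 10 genes ACLY, ACACA, ACSS2, FASN, SCD, ELOVL5, ELOVL6, FADS1, FADS2 and ACSL3 encode enzymes that make, lengthen, desaturate and activate long-chain fatty acids. They were taken by symbol from the table of mRNA counts, and all 10 were found among its 60591 rows. The table covered 18 libraries from 2 human colorectal adenocarcinoma cell lines, with 3 libraries in each of 6 groups, given in the design text as biological replicates. Caco-2, a line that takes on properties of absorptive enterocytes when kept confluent, had been held under differentiation conditions for 21 days, whereas no differentiation step was given for HT-29. Control cultures received 0.5 µl DMSO per ml of medium. The other cultures received 300 µM cobalt (II) chloride (CoCl2) or 5 µM of the oxyquinoline derivative 4896-3212 (OD), the latter with the same volume of DMSO, for 24 h. CoCl2 was prepared in water, and the sources differ on whether DMSO was also added to it, so CoCl2 and solvent cannot be told apart. Line, medium and culture state cannot be told apart either. Both agents were used as chemical activators of the hypoxia-inducible factor (HIF) pathway, and the comparisons asked how each agent changed these transcripts in each line, whether the agents differed, and whether the lines differed.

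Fatty acid synthesis in the cytosol starts from acetyl-CoA. ACLY makes it from citrate and ACSS2 makes it from acetate. ACACA carboxylates it to malonyl-CoA, and FASN joins these units to palmitate. ELOVL6 lengthens saturated chains, and SCD puts a double bond into them to give monounsaturated fatty acids. FADS2 and FADS1 add further double bonds on the route to polyunsaturated fatty acids, with ELOVL5 lengthening the chain between these steps. ACSL3 activates long-chain fatty acids to acyl-CoA and takes part in lipid droplet formation. Desaturases use molecular oxygen. Many of these genes are known targets of the sterol regulatory element-binding proteins (SREBPs), which are encoded by SREBF1 and SREBF2, escorted by SCAP, held in the endoplasmic reticulum by INSIG1 and INSIG2 and released by the proteases MBTPS1 and MBTPS2.

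RefSeq promoter windows (GRCh38.p14, 300 bases, 250 before and 50 after the start) were found for 9 of the 10 genes, all but FASN. The windows of 4 genes are shown because SCD and ACSL3 rose in each comparison against control and FADS1 and ELOVL6 fell with CoCl2 in both lines. Capitals mark the NF-Y box CCAAT, the core of the hypoxia response element (ACGTG or GCGTG) and the sterol regulatory element TCACNCCAC, each on either strand. The SCD window is chr10:100346983-100347282 on the plus strand, that of ACSL3 chr2:222860786-222861085 on the plus strand, that of ELOVL6 chr4:110198566-110198865 on the minus strand and that of FADS1 chr11:61816954-61817253 on the minus strand.
SCD: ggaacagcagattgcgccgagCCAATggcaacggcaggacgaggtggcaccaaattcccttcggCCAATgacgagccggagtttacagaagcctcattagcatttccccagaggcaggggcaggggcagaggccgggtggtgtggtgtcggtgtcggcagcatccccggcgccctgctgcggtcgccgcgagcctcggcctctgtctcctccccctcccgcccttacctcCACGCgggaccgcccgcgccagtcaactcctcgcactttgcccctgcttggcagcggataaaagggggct
ACSL3: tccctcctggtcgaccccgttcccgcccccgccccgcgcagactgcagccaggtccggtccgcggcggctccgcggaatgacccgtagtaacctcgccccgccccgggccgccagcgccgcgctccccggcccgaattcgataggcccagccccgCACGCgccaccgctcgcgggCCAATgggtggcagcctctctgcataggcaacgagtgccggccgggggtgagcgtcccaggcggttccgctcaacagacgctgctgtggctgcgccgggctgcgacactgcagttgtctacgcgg
ELOVL6: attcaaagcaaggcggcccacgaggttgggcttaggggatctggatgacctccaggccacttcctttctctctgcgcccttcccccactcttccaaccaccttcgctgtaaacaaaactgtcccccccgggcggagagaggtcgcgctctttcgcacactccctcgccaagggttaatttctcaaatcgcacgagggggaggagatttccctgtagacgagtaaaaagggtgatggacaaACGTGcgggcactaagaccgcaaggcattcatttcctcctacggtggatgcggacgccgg
FADS1: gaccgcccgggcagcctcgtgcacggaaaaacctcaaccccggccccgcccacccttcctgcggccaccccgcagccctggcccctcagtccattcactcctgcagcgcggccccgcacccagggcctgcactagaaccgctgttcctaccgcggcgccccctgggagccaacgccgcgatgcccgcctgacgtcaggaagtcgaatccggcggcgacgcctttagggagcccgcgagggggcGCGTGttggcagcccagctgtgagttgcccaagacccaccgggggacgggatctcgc
The SCD window held 2 NF-Y boxes and the ACSL3 window 1, and the windows of ELOVL6 and FADS1 held 0. Each of the 4 windows held 1 hypoxia response element core. Over the 9 genes, 7 had an NF-Y box in a window, against 34.6% of all 35116 promoter windows. Besides SCD and ACSL3 these were ACLY, ACACA, FADS2, ELOVL5 and ACSS2. Of them, ACLY, ACACA and FADS2 fell with CoCl2 in Caco-2 (log2 fold changes -0.23, -0.54 and -0.25). ACLY and ACACA rose with it in HT-29 after TMM scaling, where the small ACLY value did not pass in several other fits given below. A hypoxia response element core was found in windows of all 9 genes, against 48.4% of all windows, and the E-box CACGTG, which contains that core, in 1 gene (ELOVL5), against 7.26%. The Sp1 box GGGCGG was found in 8 genes, against 45% of windows. The sterol regulatory element in this spelling was found in 0 of the 9 genes and in 1.13% of all windows. Several genes had more than 1 window, which raises the chance of a match in a gene above that in a window, and a match is a description of letters only.

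The libraries held 12925719 to 22332639 counts each, so that 3 counts, the limit that a count of 0 allows, corresponded to between 0.112 and 0.25 CPM (counts scaled to a common library depth). Levels are given as CPM after TMM scaling within each line, and differences as log2 fold changes ± SE from the edgeR quasi-likelihood test with the Benjamini-Hochberg false discovery rate (FDR) over all genes tested (16034 in Caco-2, 15812 in HT-29 and 17921 in the joint fit of 18 libraries). A gene was counted as called at FDR under 0.05 with a log2 fold change beyond 1 in either direction, the thresholds of the study, and "rose" or "fell" is used at FDR under 0.05. Scaling by library size alone would shift the median gene in Caco-2 by -0.32 (CoCl2) and -0.15 (OD), and in HT-29 by -0.63 and -0.14. With that scaling the numbers of all genes called higher and lower with CoCl2 would be 870 and 3546 instead of 1464 and 2283 (Caco-2), and 1295 and 6250 instead of 2749 and 3775 (HT-29). For OD they would be 500 and 1644 instead of 711 and 1165 (Caco-2) and 1225 and 1596 instead of 1502 and 1197 (HT-29). Epithelial markers such as EPCAM (7257 to 27011 counts) were present in every library. The summed level of 7 intestinal epithelium markers was higher in the treated libraries of both lines. In Caco-2 it was 4650 to 4809 CPM in control, 7205 to 7984 with CoCl2 and 6153 to 6550 with OD. The HT-29 values were 5120 to 5152, 6589 to 6947 and 6467 to 7074 CPM. The enterocyte markers APOB and ALPI were counted in every Caco-2 library (at least 11503 and 193 counts) and at 0 to 5 and 0 to 2 counts in HT-29, and FABP2 reached 27 counts at most in either line. Of the 6 markers of other cell types, PTPRC, DCN and COL1A2 stayed at 0 to 3 counts and COL3A1 at 0 to 19, while COL1A1 had 202 to 405 counts in Caco-2 and 23 to 116 in HT-29, and PECAM1 28 to 172 and 3 to 35. Their summed level was 32.1 to 38.8 CPM in Caco-2 control, 18.2 to 21.8 under CoCl2 and 21.7 to 27.5 under OD, and in HT-29 it was 2.78 to 3.74, 2.54 to 3.39 and 6.16 to 7.13 CPM. The summed level of 6 enterocyte markers in Caco-2 was 4251 to 4297 CPM in control, 1157 to 1419 CPM in CoCl2 libraries and 2319 to 2862 CPM in OD libraries. Most of that sum was APOB (3927, 1063 and 2359 CPM on average), and APOA4 of the same list went the other way (13.1, 61.2 and 32.4 CPM). In HT-29 the sum was 15.9 to 16.2, 9.14 to 9.75 and 8.33 to 9.54 CPM. The part of these markers in the results below was not tested. Replicate 1 stood apart from replicates 2 and 3 in Caco-2 with CoCl2 (chi-square per degree of freedom 7.91 and 9.61, against 3.25 between the other two) and in Caco-2 with OD (8.63 and 11.4, against 3.2). Without either of these libraries the counts of the 10 genes called in Caco-2 were as with all libraries. In HT-29 control, replicate 3 stood apart from replicates 1 and 2 (5.46 and 4.52, against 1.885 between the other two). Without it, FADS1 with OD (FDR 0.056) and ACLY with CoCl2 (FDR 0.05003) no longer passed the FDR threshold in HT-29.

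By RPKM (reads per kilobase of gene, scaled by depth, and back-calculated from the deposited log2 values), SCD was the most abundant of the 10 genes in all 6 groups, at 470 ± 36 RPKM (SD, n = 3) in Caco-2 control and 213 ± 9.01 in HT-29 control. In Caco-2 control it was followed by ACLY at 60.8 ± 1.28 RPKM and ACSS2 at 40.0 ± 3.33 RPKM, then by ACSL3, FASN and ELOVL5 at 28.9 to 30.9 RPKM, whose ranges overlapped from one gene to the next. FADS1 at 23.2 ± 1.57, ACACA at 13.6 ± 0.222, ELOVL6 at 3.68 ± 0.392 and FADS2 at 2.29 ± 0.0236 RPKM closed the order without overlap. In HT-29 control ACLY (43.8 ± 0.67 RPKM) and ACSL3 (42.7 ± 1.36 RPKM) overlapped in the next places, ahead of ACACA at 30.1 ± 1.24 and FASN at 22.2 ± 1.87 RPKM. ACSS2 stood seventh of the 10 genes there, at 5.16 ± 0.276 RPKM, below ELOVL6 at 6.47 ± 0.451 RPKM and above FADS1 at 0.61 ± 0.0478 RPKM. ELOVL5 and FADS2 are listed at 0 in every HT-29 library of the RPKM table, because they did not pass the authors' filter on low counts in that line. The treatments changed this order: ACSS2 moved to the second place in HT-29 with OD (72.2 ± 5.49 RPKM, overlapping with FASN at 70.0 ± 2.45 RPKM), FASN to the second place in HT-29 with CoCl2 (87.9 ± 3.0 RPKM), and ACSL3 to the second place in Caco-2 with CoCl2 (62.4 ± 3.89 RPKM). The 10 genes together took 0.424% to 0.482% of all counts in Caco-2 control libraries, 0.53% to 0.591% in those with CoCl2 and 0.597% to 0.637% in the OD libraries. The HT-29 libraries gave 0.259% to 0.277% (control), 0.527% to 0.544% (CoCl2) and 0.558% to 0.58% (OD), and SCD alone made up most of these counts in Caco-2.

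**Figure D1:**
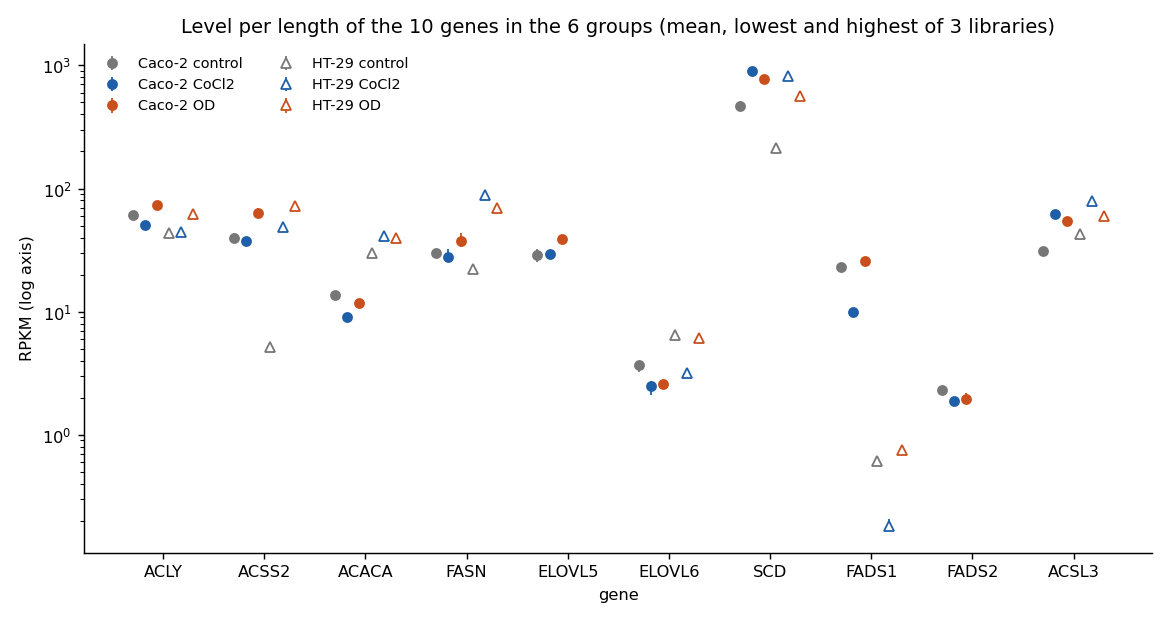
Level per length (RPKM, log axis) of the 10 genes in the 6 groups, where symbols mark the mean of 3 libraries and bars run from the lowest to the highest library. SCD lies at the top in each group, ACSS2 in HT-29 control (5.16 RPKM) lies far below its other groups, and ELOVL5 and FADS2 have no HT-29 symbols because they are listed at 0 there.

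The differences between untreated HT-29 and Caco-2 were largest at the polyunsaturated end of the pathway. In the joint fit, 3 of the 8 genes tested within both lines were called lower in HT-29 control than in Caco-2 control, beside 24.2% of all genes, and 1 was called higher, beside 21.6%. ELOVL5 and FADS2 passed the filter only through Caco-2, where they are high, and are given by their counts. The shares of all genes are not restricted in this way and include genes that passed through 1 line only. ELOVL5 had 2079, 1420 and 1561 counts in the Caco-2 controls and 0, 1 and 0 counts in the HT-29 controls. Scaled to equal depth, this was a ratio of 6164, with a 95% counting interval from 1106 to 243500, and ELOVL5 had 0 to 3 counts in every HT-29 library, treated ones included. FADS2 had 402, 355 and 345 counts in Caco-2 control and 1, 3 and 7 counts in HT-29 control, a ratio of 122 with an interval from 67.9 to 245. FADS1 had 4288, 3404 and 3170 counts in Caco-2 control against 102, 108 and 151 in HT-29 control, a ratio of 36.7 with an interval from 33 to 40.8. The 3 genes thus had few or no counts in HT-29, at the depth of these libraries, while each was readily counted in Caco-2. These intervals cover counting error only. ACSS2 was also lower in HT-29 control (log2 fold change -2.88 ± 0.0809, FDR 3.03e-26), as was SCD (-1.07 ± 0.0691, FDR 7.25e-16). ACACA was higher in HT-29 control by a log2 fold change of 1.22 ± 0.061 (FDR 5.5e-19), and ELOVL6 (0.88), ACSL3 (0.54), ACLY (-0.40) and FASN (-0.37) passed the FDR threshold without reaching the fold limit.

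**Figure D2:**
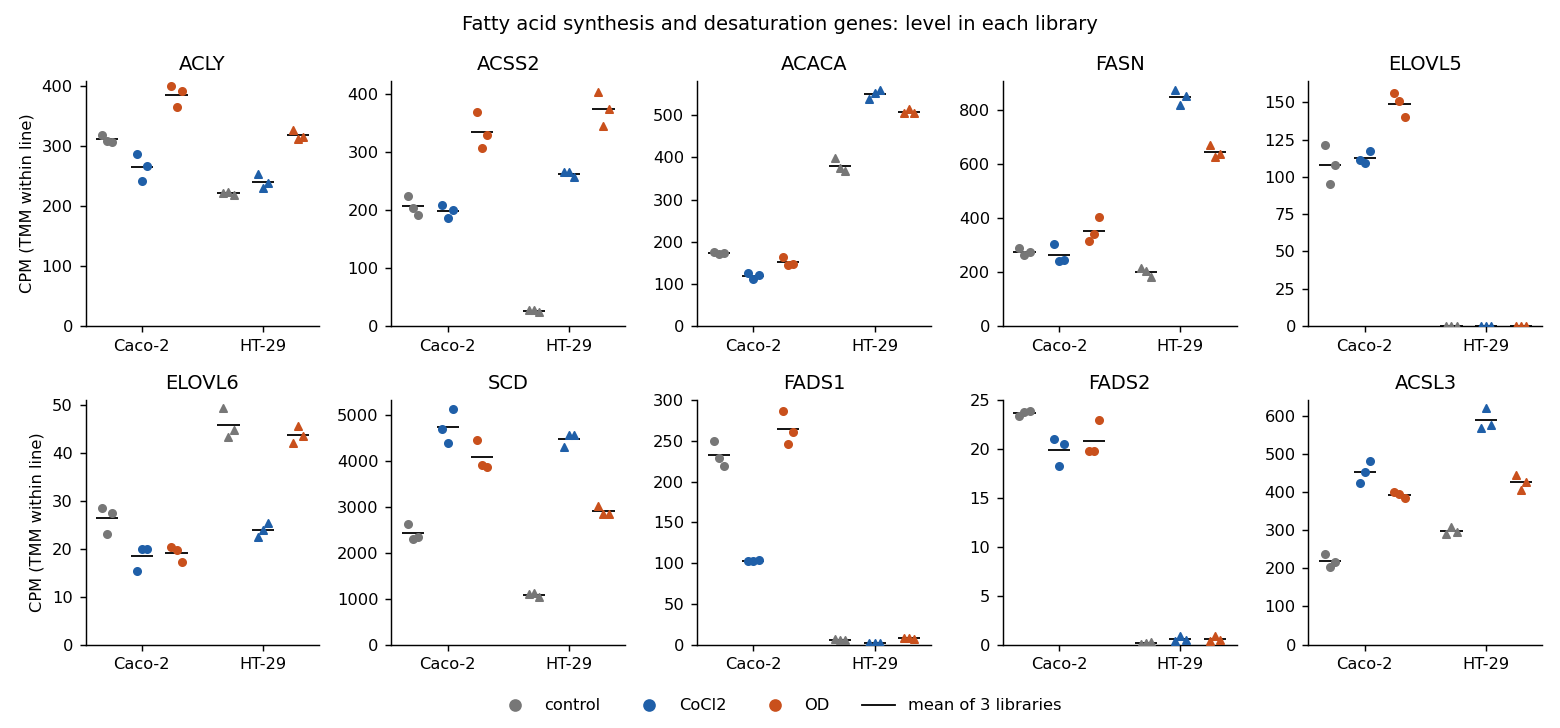
Level of each of the 10 genes in each library (CPM, linear axes from 0, scaled within each line), with 3 points per group and a line at the group mean. In HT-29 the ACSS2, FASN and SCD points of both treated groups lie above all control points, the FADS1 points with CoCl2 lie below the control points in both lines, and ELOVL5 and FADS2 lie near 0 in HT-29.

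Among the enzymes that supply acetyl-CoA and malonyl-CoA, ACSS2 changed most in HT-29. It stood at 27.0, 27.2 and 24.7 CPM in the HT-29 control libraries, at 265, 266 and 257 CPM with CoCl2 and at 403, 345 and 373 CPM with OD. All treated libraries lay far above the controls, and the OD libraries lay above those with CoCl2. The fold change was 10.0 with CoCl2 (log2 3.32 ± 0.0619, FDR 1.33e-25) and 14.3 with OD (log2 3.83 ± 0.0619, FDR 1.54e-25). In Caco-2, ACSS2 stood at 224, 203 and 191 CPM in control, 207, 186 and 199 CPM with CoCl2 and 368, 306 and 329 CPM with OD. The control and CoCl2 libraries overlapped, with a log2 fold change of -0.06 ± 0.0811 (FDR 0.527; -0.38 and FDR 0.000191 with library-size scaling), and ACSS2 rose with OD by 0.70 ± 0.0808 (FDR 1.31e-07). ACSS2 (chr20:34872146-34927962, plus strand) overlaps GGT7, which had 57 to 968 counts per library, so some reads may be shared.

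ACLY, which supplies acetyl-CoA from citrate, changed little by comparison. In Caco-2 it stood at 317, 308 and 306 CPM in control, fell with CoCl2 (287, 242 and 266 CPM, log2 fold change -0.23 ± 0.0743, FDR 0.00939) and rose with OD (398, 364 and 391 CPM, log2 fold change 0.31 ± 0.0739, FDR 0.0012; FDR 0.0633 with library-size scaling). Leaving out CoCl2 replicate 2 took the value with CoCl2 to -0.16, with an FDR of 0.094. In HT-29 it stood at 222, 224 and 218 CPM in control and 326, 312 and 314 CPM with OD, a log2 fold change of 0.52 ± 0.0462 (FDR 1.41e-10). With CoCl2 the HT-29 value was 0.12 ± 0.0468 (FDR 0.0205) after TMM scaling and -0.51 with library-size scaling, so its direction depended on the scaling, and without CoCl2 replicate 1 the FDR was 0.106. It also did not pass in the joint fit of 18 libraries (0.013, FDR 0.874) or without the filter on low counts (0.063, FDR 0.444). Nor did it pass with limma on the deposited log2 values (0.026, FDR 0.56). ACACA, the acetyl-CoA carboxylase of the cytosol, fell in Caco-2 with CoCl2, from 177, 172 and 172 CPM to 126, 111 and 120 CPM (log2 fold change -0.54 ± 0.0751, FDR 8.8e-07). Its fall with OD in Caco-2 was -0.19 ± 0.0744 (FDR 0.0405), and leaving out any 1 control library, or replicate 2 or 3 of OD or of CoCl2, raised the FDR past 0.05. In HT-29, ACACA rose with OD by 0.42 ± 0.0434 (FDR 2.73e-09), and with CoCl2 by 0.53 ± 0.0436 (FDR 1.25e-11) after TMM scaling, where library-size scaling gave -0.10.

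FASN, the multifunctional synthase that releases palmitate, rose strongly in HT-29 and little or not at all in Caco-2. In HT-29 it stood at 216, 204 and 183 CPM in control, at 871, 818 and 851 CPM with CoCl2 and at 669, 624 and 637 CPM with OD. The 3 groups did not overlap, and the fold changes were 4.22 with CoCl2 (log2 2.08 ± 0.0534, FDR 1.27e-22) and 3.21 with OD (log2 1.68 ± 0.0528, FDR 7.5e-20). In Caco-2, FASN stood at 288, 264 and 274 CPM in control, 304, 239 and 244 CPM with CoCl2 and 313, 338 and 404 CPM with OD. The CoCl2 libraries lay on both sides of the controls (log2 fold change -0.07 ± 0.0932, FDR 0.516, 95% confidence interval -0.26 to 0.12; -0.39 and FDR 0.00161 with library-size scaling), and the OD libraries all lay above them (0.36 ± 0.0929, FDR 0.00268; 0.20 with library-size scaling, which did not pass the FDR threshold).

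SCD, the desaturase that makes oleate from stearate, rose with both agents in both lines. In Caco-2 it stood at 2627, 2286 and 2337 CPM in control, 4682, 4376 and 5122 CPM with CoCl2 and 4443, 3909 and 3863 CPM with OD. All treated libraries lay above all controls, and the log2 fold changes were 0.97 ± 0.0831 for CoCl2 (FDR 3.35e-10) and 0.75 ± 0.0828 with OD (FDR 5.95e-08), both under the fold limit of a call. Without CoCl2 replicate 2 or control replicate 1 the CoCl2 value passed that limit and SCD counted as called. In HT-29, SCD stood at 1103, 1114 and 1032 CPM in control, 4290, 4565 and 4555 CPM with CoCl2 and 3012, 2829 and 2840 CPM with OD. The HT-29 groups did not overlap, with fold changes of 4.13 (log2 2.05 ± 0.045, FDR 4.72e-24) and 2.67 (log2 1.42 ± 0.0442, FDR 6.58e-20). SCD made up 0.255% to 0.295% of all counts in Caco-2 control libraries and 0.396% to 0.452% with CoCl2. In HT-29 this share went from 0.123% to 0.132% in control to 0.332% to 0.351% with CoCl2. The pseudogene SCDP1 had 5 to 39 counts per library, and no gene of the GENCODE v44 annotation overlaps SCD.

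FADS1, the desaturase of a late step of polyunsaturated fatty acid synthesis, went in the opposite direction to SCD with CoCl2. In Caco-2 it stood at 249.6, 228 and 219 CPM in control, 102, 102 and 104 CPM with CoCl2 and 286, 247 and 261 CPM with OD. The CoCl2 libraries lay closely together at 44.3% of the control level (log2 fold change -1.18 ± 0.0768, FDR 2.24e-12), and the OD libraries overlapped with the controls (0.19 ± 0.0745, FDR 0.0401). That OD value did not pass the FDR threshold without control replicate 2 or 3 or OD replicate 1, nor with library-size scaling (0.03). In HT-29, where FADS1 was low, the counts were 102, 108 and 151 in control, 24, 32 and 22 with CoCl2 and 150, 137 and 134 with OD. In CPM these were 6.58, 5.91 and 5.67 in control, 1.79, 2.21 and 1.81 with CoCl2 and 7.76, 7.97 and 7.13 with OD. FADS1 fell to 32.6% of control with CoCl2 (log2 fold change -1.62 ± 0.165, FDR 9.35e-10) and rose with OD (0.34 ± 0.117, FDR 0.0112; FDR 0.056 without control replicate 3, and 0.0749 with DESeq2; 0.21 and FDR 0.121 with library-size scaling). FADS2 fell with CoCl2 in Caco-2 at an FDR close to the threshold (23.4, 23.8 and 23.9 CPM in control, 21.0, 18.2 and 20.6 CPM with CoCl2, log2 fold change -0.25 ± 0.106, FDR 0.0425), and 6 of the 9 fits with 1 library left out no longer passed. With OD its log2 fold change in Caco-2 was -0.19 ± 0.105 (FDR 0.143; -0.34 and FDR 0.0111 with library-size scaling). In HT-29, where its libraries held 1 to 15 FADS2 counts, it did not enter the test. FADS1 (chr11:61799627-61829318, minus strand) and FADS2 (chr11:61792980-61867354, plus strand) overlap in GENCODE v44 on GRCh38, and FEN1 lies inside FADS2. Whether the counting used strand was not given in the sources used here, so reads in the overlap cannot be assigned with certainty.

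The elongases fell or stayed near control with CoCl2. ELOVL6 stood at 28.4, 23.1 and 27.5 CPM in Caco-2 control, 15.4, 19.8 and 20.0 CPM with CoCl2 and 20.2, 19.8 and 17.3 CPM with OD. Both treated groups lay below the controls, with log2 fold changes of -0.51 ± 0.119 (FDR 0.00063) and -0.46 ± 0.118 (FDR 0.00216). In HT-29 it stood at 49.4, 43.2 and 44.7 CPM in control, 22.3, 23.9 and 25.4 CPM with CoCl2 and 41.9, 45.6 and 43.4 CPM with OD. Here ELOVL6 fell to 52.2% of control with CoCl2 (-0.94 ± 0.0686, FDR 1.17e-12), while the OD libraries overlapped with the controls (-0.07 ± 0.0606, FDR 0.342, 95% confidence interval -0.19 to 0.06; -0.20 and FDR 0.00571 with library-size scaling). ELOVL5, the elongase of polyunsaturated chains, was tested in Caco-2 only. It stood at 121, 95.2 and 108 CPM in control, 112, 109 and 117 CPM with CoCl2 and 156, 151 and 140 CPM with OD. It rose with OD (0.46 ± 0.0827, FDR 5.55e-05), and with CoCl2 its log2 fold change was 0.06 ± 0.0832 (FDR 0.547; -0.26 with library-size scaling).

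ACSL3, the acyl-CoA synthetase of the endoplasmic reticulum and lipid droplets, rose with both agents in both lines. In Caco-2 it stood at 237, 204 and 217 CPM in control, 424, 454 and 483 CPM with CoCl2 and 401, 395 and 386 CPM with OD. All treated libraries lay above all controls, and the fold changes were 2.07 with CoCl2 (log2 1.05 ± 0.0752, FDR 1.27e-11) and 1.80 with OD (log2 0.84 ± 0.075, FDR 1.75e-09). Without control replicate 2 the CoCl2 value was just under the fold limit, and 0 of the 10 genes counted as called higher. In HT-29, ACSL3 stood at 292, 309 and 297 CPM in control, 570, 623 and 576 CPM with CoCl2 and 446, 407 and 428 CPM with OD. The log2 fold changes were 0.98 ± 0.0479 (FDR 1.83e-16) and 0.51 ± 0.0476 (FDR 3.51e-10).

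**Figure D3:**
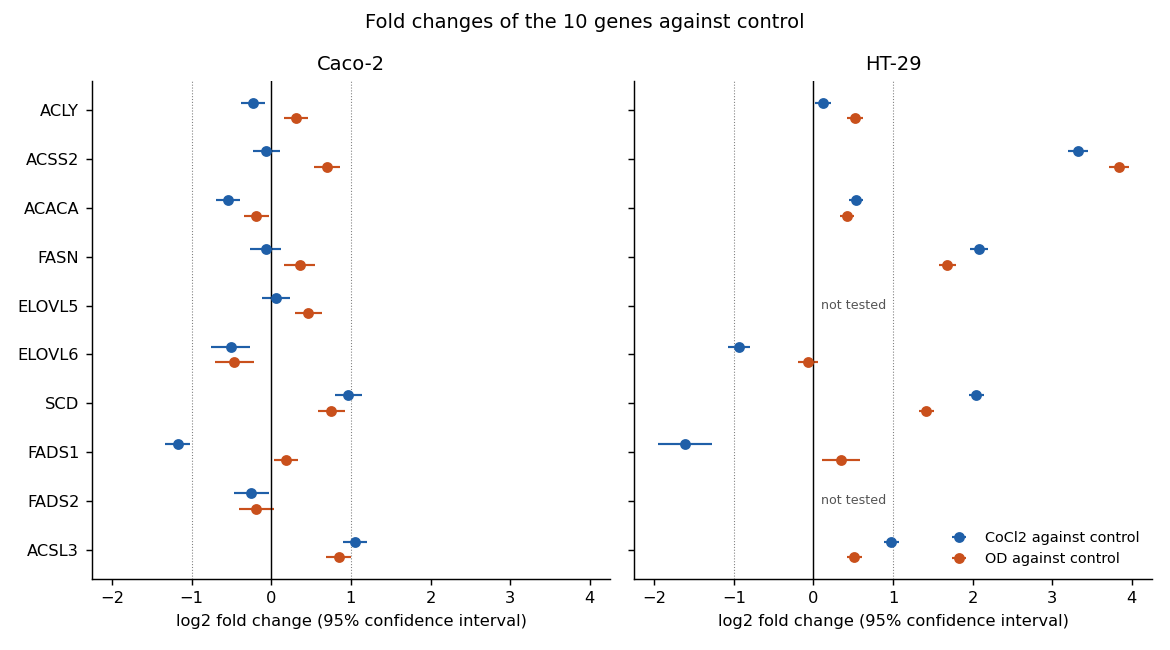
Log2 fold change against control with its 95% confidence interval for the 10 genes in Caco-2 and HT-29, with CoCl2 and OD in separate colours, where dotted lines mark the fold limit of a call. In HT-29 ACSS2, FASN and SCD lie right of the limit with both agents and FADS1 lies left of it with CoCl2, while in Caco-2 only ACSL3 and FADS1 with CoCl2 lie beyond it.

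Counted together, CoCl2 in Caco-2 gave 1 gene called higher (ACSL3) and 1 called lower (FADS1) of 10, beside 9.13% and 14.2% of all genes, which is close to that background. By FDR alone 2 rose and 5 fell, beside 31.6% and 33.1% of all genes. With OD in Caco-2, 0 of the 10 were called in either direction, beside 4.43% of all genes called higher and 7.27% called lower, while 7 rose and 2 fell, beside 25.7% and 24.7%. In HT-29, 8 of the 10 genes passed the filter on low counts. With CoCl2, 3 were called higher (ACSS2, FASN and SCD) and 1 lower (FADS1), beside 17.4% and 23.9% of all genes, and 6 rose and 2 fell, beside 40.7% and 42.2%. The 6 include ACLY, whose small rise did not pass in several other fits. With OD, ACSS2, FASN and SCD were again called higher and 0 lower, beside 9.50% and 7.57%, and 7 rose and 0 fell, beside 34.7% and 34.0%. ELOVL6 (-0.07) was the gene that did not pass. DESeq2 gave the same counts of called genes in these 4 comparisons. The median log2 fold change of the genes tested in Caco-2 was -0.15 (CoCl2) and 0.33 (OD), where the medians of all genes were -0.03 and -0.02. In HT-29 it was 0.76 (CoCl2) and 0.52 (OD), where the medians of all genes were -0.03 and 0.01. Within a line the comparisons share the 3 control libraries.

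The agents were then compared directly within each line. Over all genes, 835 were called higher and 1033 lower with CoCl2 than with OD in Caco-2 (602 and 1524 with library-size scaling), and 1702 and 3032 in HT-29 (783 and 5279). In Caco-2, 0 of the 10 genes were called higher with CoCl2 than with OD and 1 was called lower, beside 5.21% and 6.44% of all genes. This was FADS1, with a log2 fold change of -1.36 ± 0.077 (FDR 7.87e-13). ACSS2 (-0.76), ACLY (-0.54), FASN (-0.43), ELOVL5 (-0.40) and ACACA (-0.36) were also lower with CoCl2 at FDR under 0.05. SCD (0.22, FDR 0.0327) and ACSL3 (0.21, FDR 0.024) were higher, but neither passed with library-size scaling or without CoCl2 replicate 3, OD replicate 2 or OD replicate 3. ELOVL6 (-0.05, 95% confidence interval -0.30 to 0.21) and FADS2 (-0.06, -0.28 to 0.16) did not differ detectably. In HT-29, 0 of the 8 genes tested were called higher with CoCl2 than with OD and 1 lower, beside 10.8% and 19.2% of all genes. FADS1 was again the gene called, at -1.96 ± 0.159 (FDR 1.46e-11). ELOVL6 (-0.87), ACSS2 (-0.51) and ACLY (-0.40) were lower and SCD (0.63, FDR 5.52e-13) was higher with CoCl2. FASN (0.40), ACSL3 (0.47) and ACACA (0.11) were higher after TMM scaling and stood at -0.10, -0.03 and -0.39 with library-size scaling. The ACACA value also did not pass the FDR threshold without the filter on low counts (FDR 0.497) or in the joint fit (0.018, FDR 0.814). Nor did it pass with limma, or without replicate 3 of CoCl2 or of OD.

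Ratios of counts between pairs of these genes within a library do not depend on how libraries are scaled, and the pairs shown were chosen after the values were seen. The ratio of SCD to FADS1 counts was 10.4 ± 0.338 (SD, n = 3) in Caco-2 control, 45.9 ± 3.31 under CoCl2 and 15.4 ± 0.53 under OD. The HT-29 ratios were 179.5 ± 10.8 in control, 2324 ± 234 under CoCl2 and 380.4 ± 22.7 under OD. In both lines the 3 groups did not overlap. SCD over ELOVL6 went from 92.1 ± 6.89 in Caco-2 control to 260.1 ± 41.7 under CoCl2 and 214 ± 13.8 under OD, and from 23.7 ± 1.81 in HT-29 control to 187.5 ± 7.31 and 66.4 ± 4.97. SCD over FASN went from 8.78 ± 0.313 in Caco-2 control to 18.3 ± 2.79 under CoCl2 and 11.8 ± 2.31 under OD. In HT-29 it was 5.40 ± 0.27 in control and 5.28 ± 0.331 under CoCl2, with overlapping libraries, and 4.496 ± 0.0392 under OD, where every library lay below the controls. The ratio of ACSS2 to ACLY counts, the acetate-using over the citrate-using enzyme, was 0.119 ± 0.00468 in HT-29 control, 1.09 ± 0.0575 with CoCl2 and 1.18 ± 0.0657 with OD. For Caco-2 this ratio was 0.663 ± 0.0412, 0.747 ± 0.023 and 0.868 ± 0.0478. FASN over ACACA was 0.528 ± 0.0268 in HT-29 control and then 1.54 ± 0.0688 (CoCl2) and 1.27 ± 0.0561 (OD), while Caco-2 gave 1.59 ± 0.0468, 2.20 ± 0.194 and 2.32 ± 0.422.

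**Figure D4:**
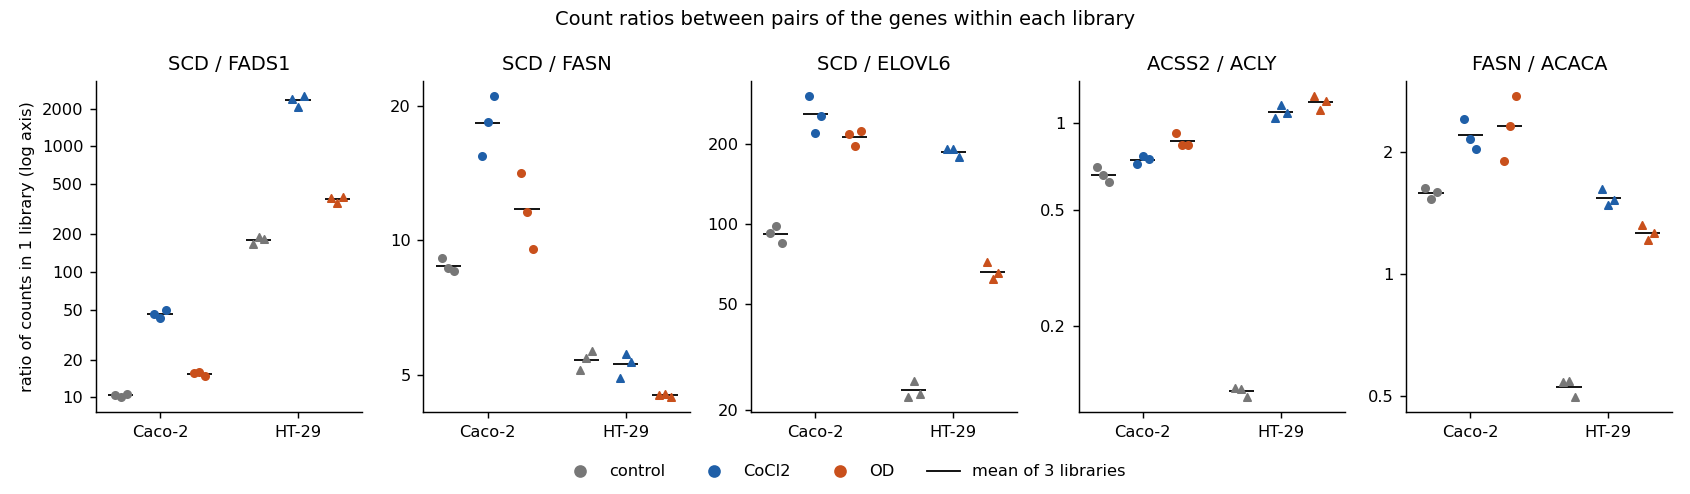
Ratio of counts between 5 pairs of the genes in each library (log axes), with 3 points per group and a line at the group mean. SCD over FADS1 is highest with CoCl2 in each line (45.9 and 2324), and ACSS2 over ACLY is near 0.119 in HT-29 control and above 1 in both treated HT-29 groups.

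Whether the response differed between the lines was tested as an interaction in the joint fit. For CoCl2, 2 of the 8 genes tested within both lines were called with a higher response in HT-29 and 0 with a lower one, beside 7.79% and 13.8% of all genes. For both agents the shares of all genes include genes that passed the filter through 1 line only. ACSS2 differed most, by a log2 difference of 3.28 ± 0.108 (FDR 1.36e-22), followed by FASN at 2.04 ± 0.116 (FDR 3.15e-16). FADS2 entered the joint fit only through its Caco-2 counts and is left out of that count. It had 1, 3 and 7 counts in HT-29 control and 5, 12 and 5 with CoCl2, too few to compare its response between the lines. SCD (0.97 ± 0.0967) and ACACA (0.97 ± 0.086) differed at FDR under 0.05 just below the fold limit, and with DESeq2 or its size factors both passed it. FADS1 (-0.55 ± 0.176, FDR 0.00951; 0.0574 with DESeq2) and ELOVL6 (-0.54 ± 0.136, FDR 0.0012) fell more in HT-29. ACLY differed by 0.24 (FDR 0.0222), and by 0.04 (FDR 0.742) with library-size scaling. ACSL3 differed by -0.18 (FDR 0.103). With library-size scaling it gave -0.38 (FDR 0.000301), and without Caco-2 CoCl2 replicate 1 its FDR was 0.0337. ELOVL5, with 0 to 1 counts in these HT-29 libraries, could not be compared. For OD, 2 of the 8 genes were called with a higher response in HT-29 and 0 with a lower one, beside 8.96% and 6.24% of all genes. These were ACSS2 (3.12 ± 0.107, FDR 1.96e-21) and FASN (1.31 ± 0.115, FDR 2.59e-11). FADS2 (1 to 15 counts in HT-29) and ELOVL5 (0 to 3 counts) are again left out and could not be compared. SCD (0.65), ACACA (0.59) and ELOVL6 (0.38) differed in the direction of ACSS2 and FASN at FDR under 0.05, and ACSL3 (-0.35) in the opposite one. The ELOVL6 value did not pass without Caco-2 control replicate 1 (FDR 0.068), Caco-2 OD replicate 3 (0.062) or HT-29 control replicate 2 (0.054). ACLY (0.20, FDR 0.0727) and FADS1 (0.14, FDR 0.404) did not pass. ACLY did pass with DESeq2 (0.21, FDR 0.033), with library-size scaling (0.23, FDR 0.0246) and without Caco-2 CoCl2 replicate 1 (FDR 0.0447). Since the HT-29 controls were lower for ACSS2 and SCD, each difference of responses shares its controls with the comparison of the untreated lines.

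Of the 20 genes listed as controllers of lipid synthesis, INSIG1, a known SREBP target that holds SREBPs back, rose in every comparison against control. It went from 188 ± 26.8 CPM in Caco-2 control to 513 ± 24.9 under CoCl2 and 449 ± 26.0 under OD (log2 1.45 and 1.26), and in HT-29 from 72.9 ± 7.75 CPM in control to 1822 ± 113 under CoCl2 and 599.6 ± 48.8 under OD (log2 4.65 ± 0.0714 and 3.05 ± 0.0676). INSIG2 went from 26.6 ± 1.09 CPM in Caco-2 control to 152 ± 18.1 (CoCl2) and 102 ± 3.16 (OD) (log2 2.52 and 1.94), and from 46.9 ± 3.44 CPM in HT-29 control to 156 ± 5.64 with CoCl2 (log2 1.73). With OD in HT-29 INSIG2 stood at 47.7 ± 2.11 CPM (log2 0.02, FDR 0.822), within the range of the controls. SREBF1 and SREBF2 rose in HT-29 with CoCl2 (1.17 and 0.97) and with OD (0.64 and 0.66). The Caco-2 values were 0.66 and 0.19 for CoCl2 and 0.25 and 0.38 for OD, where the SREBF2 value with CoCl2 turned to -0.13 under library-size scaling and did not pass without control replicate 1 or 3, and the SREBF1 value with OD did not pass under library-size scaling or without control replicate 1, control replicate 3 or OD replicate 3. Of the 19 control genes tested in Caco-2, CoCl2 called 2 higher (INSIG1 and INSIG2) and 2 lower, which were MID1IP1 (-1.84), an activator of acetyl-CoA carboxylase, and the carbohydrate-responsive factor MLXIPL (-1.14), beside 9.13% and 14.2% of all genes. OD called 3 higher, INSIG1, INSIG2 and the AMPK subunit PRKAA2 (1.02), and 0 lower there, beside 4.43% and 7.27% of all genes. Of the 18 tested in HT-29, CoCl2 called 4 higher, INSIG1, INSIG2, SREBF1 and the liver X receptor NR1H2 (1.42), and 2 lower, MBTPS2 (-1.20) and MLXIPL (-1.29, on 7 to 46 counts), beside 17.4% and 23.9% of all genes. SREBF1 and NR1H2 passed the fold limit by less than the shift of the median gene with library-size scaling (-0.63). OD called INSIG1 and MLXIPL (1.21, on 17 to 85 counts) higher and 0 lower, beside 9.50% and 7.57%. SCAP was not called in any of the 4 comparisons, at -0.39, -0.34, -0.25 and 0.21.

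**Figure D5:**
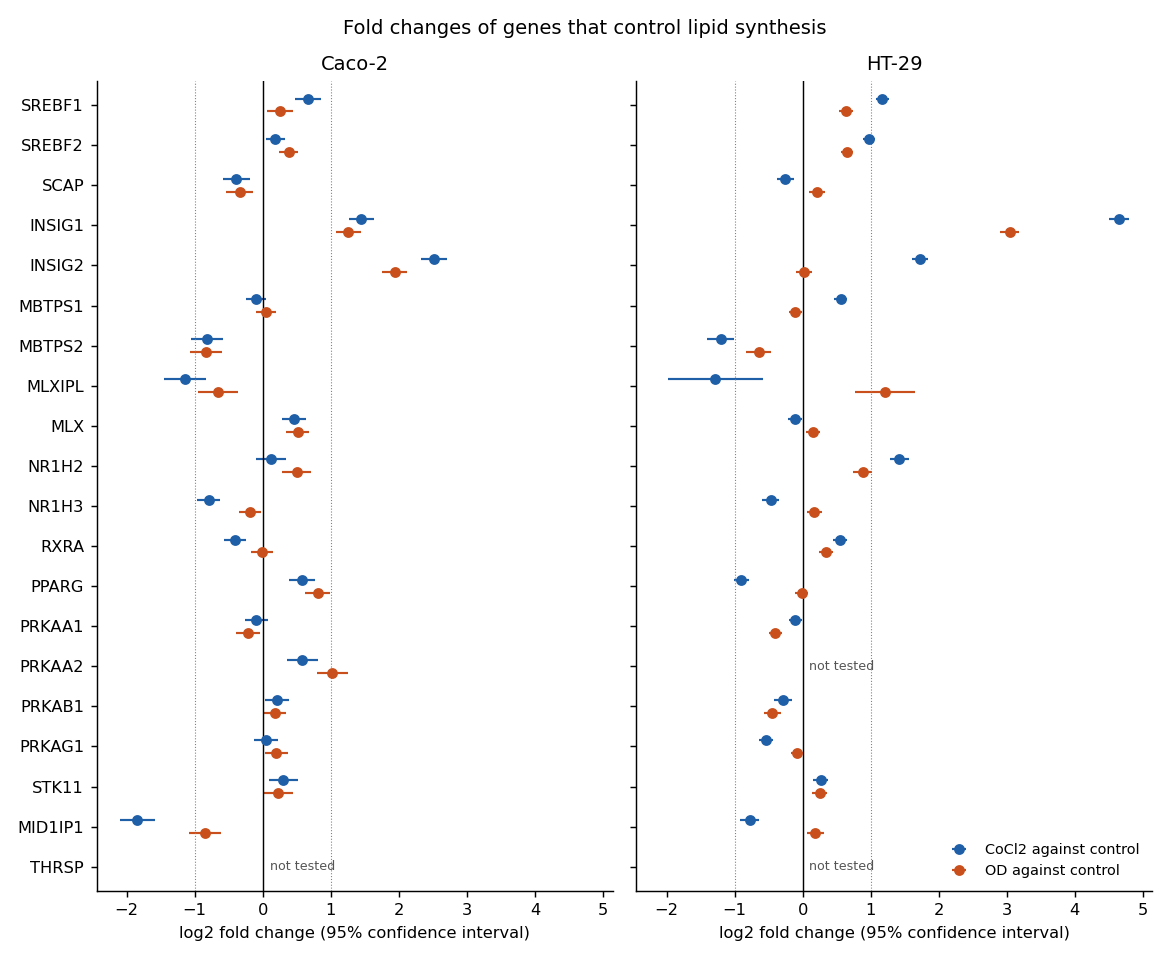
Log2 fold change against control with its 95% confidence interval for the 20 listed genes that control lipid synthesis, in Caco-2 and HT-29, with CoCl2 and OD in separate colours and dotted lines at the fold limit. INSIG1 lies right of the limit in all 4 comparisons, INSIG2 in 3 of them, and PRKAA2 in HT-29 and THRSP in both lines were not tested.

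A list of 34 further genes of fatty acid supply, elongation, desaturation and activation was counted in the same way. In Caco-2, 31 were tested; CoCl2 called 1 higher and 2 lower, beside 9.13% and 14.2% of all genes, and OD called 1 in each direction, beside 4.43% and 7.27%. ME1, the malic enzyme that makes NADPH, was the gene called higher with CoCl2 (1.89 ± 0.0826, FDR 9.51e-16), and FADS6 (1.04 ± 0.103, FDR 9.41e-09) was the gene called higher with OD. ELOVL2 with both agents and ELOVL3 with CoCl2 were the genes called lower, on 1 to 29 and 6 to 46 counts per library, and are named after their values were seen. In HT-29, 27 were tested; CoCl2 called 5 in each direction, beside 17.4% and 23.9% of all genes, and OD called 4 higher and 1 lower, beside 9.50% and 7.57%. ME1 rose by 3.56 ± 0.0507 under CoCl2 and 1.82 ± 0.0495 under OD, FADS3 of the FADS family by 2.02 and 1.79, and the acyl-CoA synthetase ACSL1 by 1.96 and 1.43. The other genes called higher in HT-29 were OXSM (1.37) and HSD17B12 (1.34) with CoCl2 and ELOVL7 (1.38) with OD, named after their values were seen. OXSM and HSD17B12 passed the fold limit by less than the shift of the median gene with library-size scaling (-0.63). Called lower with CoCl2 were DEGS2 (-1.62), the mitochondrial fatty acid synthesis enzymes MECR (-1.53) and CBR4 (-1.53), and, named after their values were seen, ACACB (-2.02) and HACD4 (-1.61), the last also with OD (-1.49) on 7 to 29 counts. ACACB, the acetyl-CoA carboxylase of the outer mitochondrial membrane, fell in all 4 comparisons. With CoCl2, 7 of the 31 pathway genes rose and 17 fell in Caco-2, beside 31.6% and 33.1% of all genes, and 15 of 27 rose and 11 fell in HT-29, beside 40.7% and 42.2%. With OD, 7 of the 31 rose and 9 fell in Caco-2, beside 25.7% and 24.7%. In HT-29, 11 of the 27 rose and 8 fell with OD, beside 34.7% and 34.0%.

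Among 8233 genes tested in both lines with at least 10 CPM on average in each, the genes outside the 10 whose 4 log2 fold changes lay nearest to the median of the 8 members tested in both lines were RAPGEF1 (root mean square difference 0.0622), TECR (0.0765), VOPP1 (0.0771), MINK1 (0.08) and PCMTD1 (0.0855). TECR, the last enzyme of the elongation cycle and one of the listed pathway genes, stood at -0.11 (CoCl2) and 0.22 (OD) in Caco-2 and at 0.85 and 0.52 in HT-29. The 8 members differed widely among themselves, with ACSS2 at 3.32 and FADS1 at -1.62 with CoCl2 in HT-29. Nearness to their median is therefore not likeness to any member, and shared control of TECR with them was not tested. Within the 10 genes, by the same measure, SCD and FASN were each other's nearest (0.572), as were ACLY and ACACA (0.362) and ELOVL6 and FADS1 (0.613).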

How the data were processed

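The labels give mRNA libraries (Illumina stranded mRNA kit, single-end 75-nucleotide reads). According to the submitters' processing notes and the study's methods, the authors trimmed reads with cutadapt 2.10, mapped them to GRCh38.p13 with STAR 2.7.5b, and deposited whole-number counts per gene over the GENCODE annotation; the counter and its strand setting are not given in the sources used here. The authors also deposited a table of log2 values, which recomputation showed to be log2(RPKM + 1) with TMM scaling within each line after a filter on low counts. Tables of miRNA were not used here.

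From the counts, edgeR 4.0.16 (R 4.3.3) was fitted within each line (9 libraries, filterByExpr, TMM, quasi-likelihood F test, two-sided) and over all 18 libraries for differences between lines. The p-values were adjusted over all genes tested. Alternatives were DESeq2 1.42.0 (the tool named in the study's methods), other scalings, no filter, limma 3.58.1 on the log2 values, a replicate block and leaving out each library. The code was checked on simulated counts. Named were the 10 genes, the control genes, the called pathway genes with a mean count of at least 100 (up to 3 per direction) and the 5 nearest genes; others are marked in the text as named after their values were seen. The members and lists were chosen with earlier results of these data known. Libraries of a group differed beyond sampling noise (chi-square per degree of freedom 1.86 to 11.4), so each counted as 1 replicate. Promoter windows and coordinates came from RefSeq (GRCh38.p14) and GENCODE v44; the genes were matched by symbol.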

Additional observations from a re-analysis of the deposited data

Results flagged for a closer look

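The response to an agent differed between HT-29 and Caco-2, by the test of that difference and past the fold limit, for several genes, given here as log2 differences (HT-29 minus Caco-2). With CoCl2 these were ACSS2 (3.28), FASN (2.04), ME1 (1.57), ACACB (-1.45), FADS3 (1.72), DEGS2 (-2.25), ACSL1 (2.84), INSIG1 (3.09), NR1H2 (1.19) and PPARG (-1.58). With OD they were ACSS2 (3.12), FASN (1.31), ELOVL7 (1.74), FADS3 (1.72), DEGS2 (-1.04), ACSL1 (1.86), INSIG1 (1.77), INSIG2 (-1.94), MLXIPL (1.85) and MID1IP1 (1.02). The joint fit also flagged FADS2 (1.70 with CoCl2 and 1.76 with OD) and PRKAA2 (2.99 with CoCl2). FADS2 and PRKAA2 passed the filter only through Caco-2 and were at or near 0 counts in HT-29. Their values depend on the prior count of the fit, so their responses could not be compared between the lines. Line, medium and culture state cannot be told apart in these differences. Single values far from the others of their group were not tested for, since every group had 3 libraries.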

How the results depend on the processing

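Of 1608 refitted log2 fold changes of the 10 genes over all alternatives, 1520 kept their direction and their side of the FDR threshold. The cause of the others was not tested. Of the 1608, 1026 came from fits with 1 library left out (980 kept). Part of these left out a library outside the comparison, which enters it only through the shared scaling and spread. The total also holds joint-fit values of ELOVL5 and FADS2, whose responses could not be compared between the lines. With library-size scaling 65 of 84 were kept, and with DESeq2 80 of 84. With library-size scaling, CoCl2 called 0 of the genes higher in Caco-2, beside 870 of all 16034 genes. The values of ELOVL5 (-0.26) and SREBF2 (-0.13) reversed there. In HT-29 CoCl2 then called 2 lower, beside 6250 of all 15812 genes, and ACLY (-0.51) and ACACA (-0.10) reversed, as did INSIG2 with OD (-0.12). This scaling also took past the FDR threshold, as falls, ACSS2 (-0.38) and FASN (-0.39) with CoCl2 and FADS2 (-0.34) with OD in Caco-2, and ELOVL6 (-0.20) with OD in HT-29. Against OD in HT-29, CoCl2 then called 3 lower, beside 5279 of all 15812 genes, with ACACA (-0.39), FASN (-0.10) and ACSL3 (-0.031) reversed. With limma at a pseudocount of 1, CoCl2 called 0 higher in Caco-2, beside 584 of all 13153 genes. In HT-29 it called 0 lower, beside 1173 of 12431, and 0 lower against OD, beside 686 of 12431. At 0.1 it called 2 lower in HT-29, beside 2139 of 12431. The joint fit of 18 libraries also called 2 lower there, beside 4470 of 17921. With DESeq2, and with its size factors in edgeR, the CoCl2 response was called higher in HT-29 for 5 genes, beside 1671 and 1666 of all 17921 genes. These 5 include FADS2, whose response could not be compared, and SCD and ACACA were the genes added. INSIG2 with OD in HT-29 stood at -0.0035 and -0.0043 in these fits. Leaving out 1 library gave 0 to 2 genes called higher with CoCl2 in Caco-2 (2 without CoCl2 replicate 2 or control replicate 1, 0 without control replicate 2). In HT-29 it gave 3 to 5 with CoCl2 (5 without CoCl2 replicate 1 or 3, where FADS2 entered the test and ACSL3 passed the fold limit). With OD in HT-29 it gave 3 to 4, where the gene added had not entered the test with all libraries. For the difference between lines with CoCl2 it gave 2 to 4 (3 with all libraries, FADS2 included). It reversed small values: with CoCl2 in Caco-2, ACSS2 ranged from -0.11 to 0.0041 and ELOVL5 from -0.026 to 0.15; against OD, ELOVL6 ranged from -0.11 to 0.059 and FADS2 from -0.10 to 0.0071; and INSIG2 with OD in HT-29 ranged from -0.033 to 0.075. Replicate numbers did not pair the libraries (correlations of deviations -0.055 to 0.068); with the replicate block no count of called genes changed (3 higher and 1 lower with CoCl2 in HT-29), and FADS2 with CoCl2 in Caco-2 no longer passed the FDR threshold (-0.25, FDR 0.053). FADS1, FADS2 and ELOVL5 in HT-29 are limited by depth.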
